A study of Brassica oleracea var. italica with 2 samples.

Results

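ATG8 proteins are small ubiquitin-like modifiers of autophagy, the process by which cells enclose part of their own contents in a double membrane and deliver it to the vacuole. The protease ATG4 trims the end of most ATG8 precursors to expose a glycine, the E1-like enzyme ATG7 activates that glycine, and the E2-like enzyme ATG3 joins it to the lipid phosphatidylethanolamine on the growing membrane. In plants the pathway recycles nutrients, above all under starvation, in darkness and in ageing leaves, and the ATG8 genes form a family of several members.

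The probe sets described here are those whose gene symbol, in the annotation of the array, is exactly APG8A, ATG8B, ATG8C, ATG8D, ATG8E, ATG8F, ATG8G, ATG8H, APG8H or ATG3. This rule found 10 probe sets of 22810 on the array, 1 for each of 10 Arabidopsis genes, so no member has a second probe set to check it. Among these, 9 belong to the ATG8 family and 1 to ATG3. No member symbol occurred on a probe set listed for several genes. APG8H and ATG8H are different genes: the gene number of APG8H lies directly between those of AT3G15570 and AT3G15590, and that of ATG8H lies next to AT3G06410. APG8H is an older symbol for the Arabidopsis gene now usually called ATG8I. No sequences of these genes or of their probes were used here, so which broccoli transcripts each probe set reads was not tested.

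The data were MAS5 signals, which are scaled brightness values on a linear scale, from 2 arrays of Arabidopsis probe sets hybridised with RNA of whole seedlings of Elegance, a broccoli cultivar, at an age of 11 days and under long days (16 h light, 8 h dark). The asBoEMF2.1 array held seedlings in a wild-type background carrying an antisense copy of BoEMF2.1, a broccoli relative of the Arabidopsis Polycomb group gene EMF2, driven by the 35S promoter, which is active in most plant tissues. The vector array held seedlings in the same background carrying the empty pCAMBIA1380 vector. Seedlings of both genotypes were grown at 21 °C on medium with 0.8% agar and 1.5% sucrose. The first sample is antisense by its title and source name, while its genotype label lists 35S::BoEMF2.1 only, and the sources used here do not say how many plants or transgenic lines each sample holds.

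Each genotype had 1 sample, so values carry no error between replicates, there is no test, and "higher" and "lower" speak of 2 single arrays. The annotation names 0 probe sets EMF2, so the targeted gene did not check the labels. A signal was treated as measurable above a floor set at the median of the 22746 probe sets that are not array controls, which was 302.7 on the asBoEMF2.1 array and 317.6 on the vector array. Because the probes were designed for Arabidopsis, a dim signal can also come from a broccoli transcript that differs in sequence, and levels are compared between arrays for the same probe set and never between probe sets. Whole-seedling tissue was represented on both arrays, with 3 of 3 matched root markers and 4 of 4 matched green tissue markers above the floor. Root markers ranged from -0.44 (PYK10) to 1.63 (EXPA7) and green tissue markers from -1.52 (PSAN) to 0.64 (RCA), as log2 ratios of asBoEMF2.1 over vector. In 4 of 5 pairs of plant control probe sets the 5′ one had a higher ratio than its 3′ partner. The part of tissue makeup and of RNA quality in the ratios below was not tested.

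The comparison of asBoEMF2.1 with vector seedlings asks which transcripts differ when the antisense construct is present. The conjugating enzyme gene ATG3 was 1.68-fold higher in asBoEMF2.1 seedlings, and the ATG8 genes measured on both arrays lay close to equal signal, from 1.35-fold lower for APG8A to 1.20-fold higher for ATG8G. By ratio or bound, no member was 2-fold or more higher, against 3.43% of the 13357 probe sets that were measurable in 1 sample or more, and none was 2-fold or more lower, against 4.17%. Among 8 measurable members, shares of that size come to less than 1 probe set in each direction, so counts of 0 are near the background. In RNA from whole seedlings, fewer cells of a type and less RNA per cell cannot be told apart.

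Of the 10 members, 7 were above the floor on both arrays, 1 (ATG8B) on the asBoEMF2.1 array alone, and 2 (ATG8E and ATG8H) on neither. Over all non-control probe sets, 9382 of 22746 (41.2%) passed the floor in both samples. Of the 7 members measured in both samples, 4 had a higher signal in asBoEMF2.1 seedlings and 3 a lower one, beside 47.9% higher over the 9382 probe sets. The median log2 ratio of these 7 members was 0.06, and that of the 9382 probe sets was -0.02. With bounds included, the medians were 0.13 over 8 members and -0.03 over all 13357 measurable probe sets. Relative to the hybridization controls, bacterial and phage transcripts added to each sample, the medians with bounds were -0.06 and -0.23, so the sign of the members' median depends on the scaling.

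**Figure D1:**
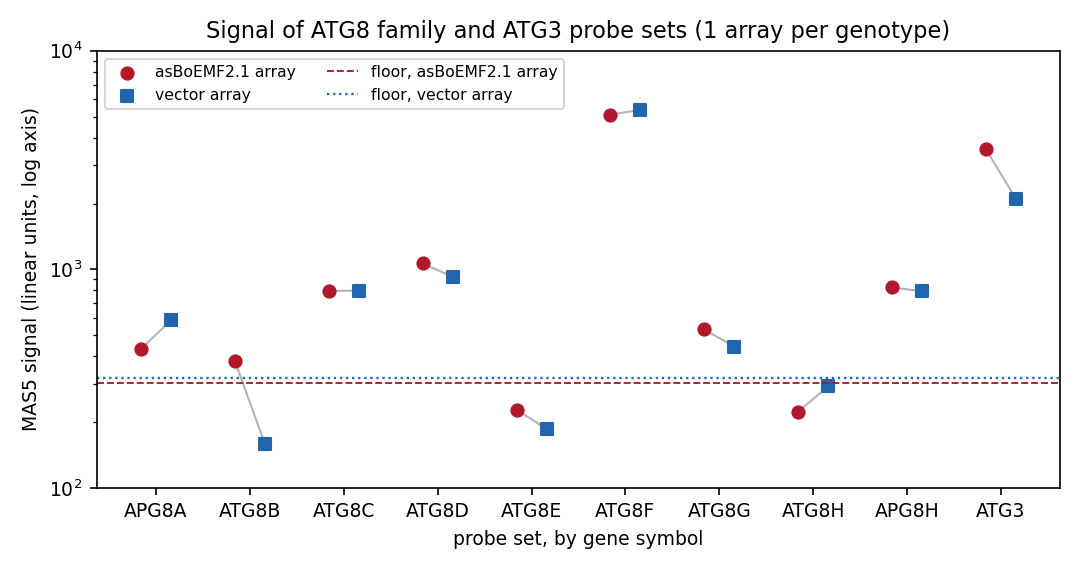
MAS5 signal (log axis) of each ATG8 family and ATG3 probe set on the asBoEMF2.1 array (circles, left of each pair) and the vector array (squares, right), with 1 array per genotype and the floor of each array as a horizontal line. ATG3 shows 3534 against 2103.2, ATG8B crosses the floor, and ATG8E and ATG8H lie below it on both arrays.

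Within the ATG8 family, APG8A, ATG8B, ATG8C and ATG8D belong to a closely related branch in Arabidopsis. APG8A had a signal of 432.7 on the asBoEMF2.1 array and 583.6 on the vector array, a log2 ratio of -0.43. It had the lowest ratio of any measurable member, and 20.5% of the 9382 probe sets measured in both samples had a ratio as low or lower. ATG8C had almost the same signal on both arrays, 796.7 with the antisense construct and 797.7 with the vector. ATG8D stood at 1063.7 on the asBoEMF2.1 array and 924.3 on the vector array, a log2 ratio of 0.20. The branch therefore held a lower, a level and a slightly higher member.

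ATG8B, the remaining member of that branch, had a signal of 380.9 on the asBoEMF2.1 array and 159 on the vector array. The vector value lay well under the floor of 317.6, so the ratio was taken as a bound, at least 1.20-fold higher. Taken at face value the signals differed 2.40-fold. Of the 1988 probe sets above the floor on the asBoEMF2.1 array alone, 41.2% had a ratio of the signals themselves as high or higher. A probe set that passes the floor in asBoEMF2.1 seedlings alone is higher there by construction, up to the small difference between the floors. ATG8B is the single member whose place relative to 2-fold depends on how dim values are treated.

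ATG8E, ATG8F and ATG8G form another branch of the family in Arabidopsis. ATG8F had a signal of 5108.1 on the asBoEMF2.1 array and 5356.1 on the vector array, a log2 ratio of -0.07. ATG8G had 530.3 on the asBoEMF2.1 array and 442.4 on the vector array, a log2 ratio of 0.26. ATG8E was below the floor on both arrays, at 227.9 and 186 in asBoEMF2.1 and vector seedlings, and has no ratio here. These signals were close between genotypes where they could be measured.

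ATG8H and APG8H encode the ATG8 proteins of Arabidopsis that already end in the exposed glycine and so can be conjugated without trimming by ATG4. APG8H had a signal of 825.8 on the asBoEMF2.1 array and 794.5 on the vector array, a log2 ratio of 0.06. ATG8H was below the floor on both arrays, at 223.3 with the antisense construct and 291.3 with the vector. Neither of these gave a measured ratio away from equal signal.

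ATG3 had a signal of 3534 on the asBoEMF2.1 array and 2103.2 on the vector array, a log2 ratio of 0.75. Among the 7 members measured in both samples it was, under the deposited scaling, the single one past 1.5-fold in either direction. By ratio or bound, 1 of 8 measurable members was 1.5-fold or more higher and 0 were lower by as much. Over all 13357 measurable probe sets, bounds included, the shares were 12.1% and 14.6%, so these counts are near the background. Of the 9382 probe sets measured in both samples, 7.03% had a ratio as high as that of ATG3 or higher. ATG3 was among the 2346 brightest of those probe sets, and within these the share was 9.42%. Relative to the hybridization controls the ratio of ATG3 was 0.56, which is under 1.5-fold. That of APG8A was then -0.62, which is past 1.5-fold lower.

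**Figure D2:**
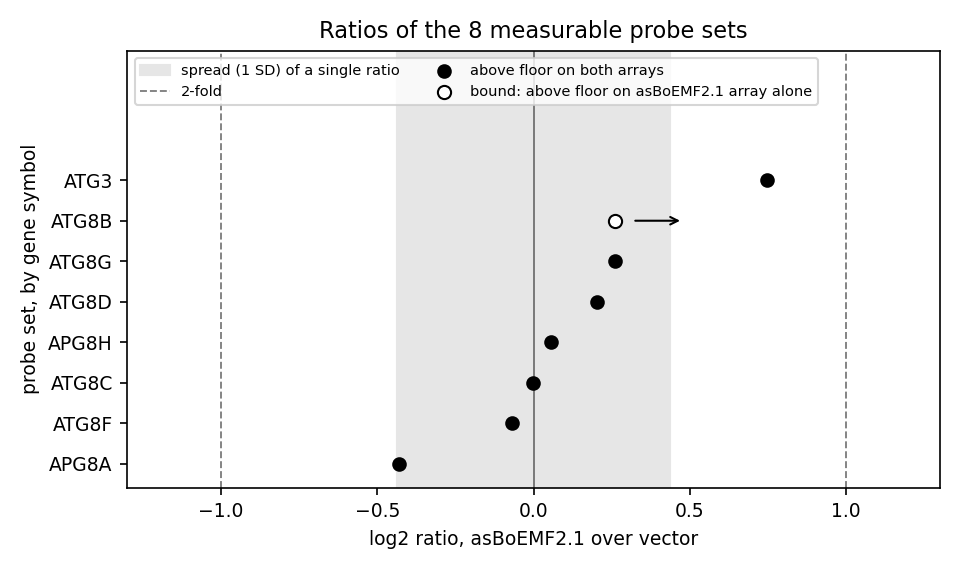
Log2 ratio of asBoEMF2.1 over vector signal for the 8 measurable probe sets, 1 array per genotype, with filled circles for values that passed the floor in both samples, an open circle with an arrow for the bound of ATG8B, a grey band for the spread of a single ratio (SD of 0.44) and dashed lines at 2-fold. ATG3 at 0.75 lies outside the band. The 6 ATG8 probe sets measured in both samples, from -0.43 to 0.26, lie inside it, with APG8A at its edge.

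The spread of a single ratio came from the 29 genes for which 2 probe sets could be measured in both samples, and its SD was 0.44 on the log2 scale. It covers noise between probe sets and not variation between plants. The ratio of ATG3 was 1.71 times that spread. All 6 ATG8 members above the floor on both arrays had ratios smaller in size than the spread, APG8A only just, at 0.99 times. Relative to the hybridization controls APG8A stood at -0.62, outside the spread. Under the deposited scaling the 6 ATG8 members had a median of 0.03 and an SD of 0.25, beside an SD of 0.54 over all 9382 probe sets measured in both samples. Among the 7 members measured in both samples, ATG3 exceeded ATG8G, the next highest, by 0.49 and APG8A, the lowest, by 1.18.

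**Figure D3:**
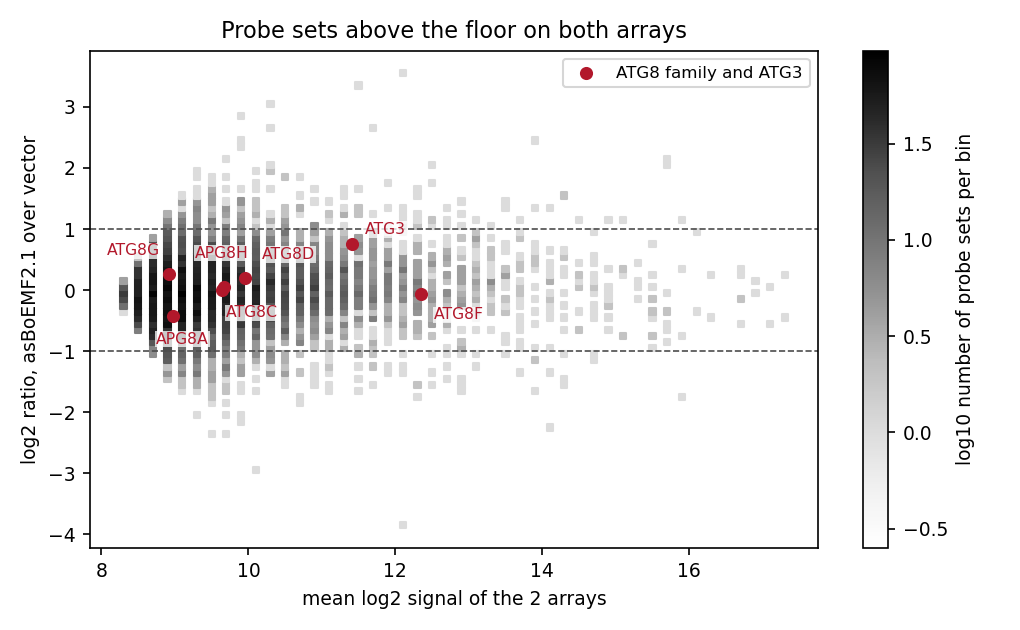
Log2 ratio of asBoEMF2.1 over vector against the mean log2 signal of the arrays, for 9382 probe sets that passed the floor in both samples, binned and shaded by the log10 number of probe sets, with the 7 members in this set as red points and 2-fold as dashed lines. ATG3 and ATG8F lie among bright probe sets and the other 5 among dimmer ones, and all 7 lie within 2-fold.

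The rest of the autophagy machinery was covered in part. Of 40 other autophagy genes listed by their Arabidopsis names and loci, 13 were matched by 15 probe sets, of which 11 were measurable in 1 sample or more. By ratio or bound, 0 of the 11 were 2-fold or more higher and 1 was 2-fold or more lower, beside 3.43% and 4.17% over all measurable probe sets. At 1.5-fold, 0 were higher and 3 lower, beside 12.1% and 14.6%. Bounds can be much smaller in size than ratios of the signals themselves. The latter were, as log2, 3.68 for AT3G53930, -3.29 for AT3G59950 and -2.45 for RAPTOR2. Each rests on a value below the floor in 1 sample, and the part of noise in it was not tested. The median log2 ratio of the 11 was -0.01, beside -0.03 over all measurable probe sets, with 5 higher and 6 lower by their own signals. The annotation gives most of them as locus codes, and the names below are those entered in the list from Arabidopsis usage.

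The probe set 2-fold lower was AT4G34660, listed as SH3P2, a membrane-binding protein that associates with ATG8 in Arabidopsis, with 327 on the asBoEMF2.1 array and 833.1 on the vector array, or 2.55-fold lower. Its asBoEMF2.1 signal lay just above the floor of 302.7. AT3G59950, listed as ATG4B, a protease that trims ATG8, had 53.8 on the asBoEMF2.1 array and 526.2 on the vector array. As a bound it was at least 1.74-fold lower. AT5G50230, listed as ATG16, part of the E3-like complex of ATG8 conjugation, had 1228.3 on the asBoEMF2.1 array and 1033.8 on the vector array, a log2 ratio of 0.25. The ATG7 and ATG5 genes, which act beside ATG3, were not matched and were not analysed here.

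Among genes that start autophagy, AT3G61960, listed as the kinase ATG1A, had 849.6 on the asBoEMF2.1 array and 1033.2 on the vector array, a log2 ratio of -0.28. AT5G66930, listed as ATG101, a partner of that kinase, stood at 0.22 (473.8 on the asBoEMF2.1 array and 407.6 on the vector array). AT2G32760, listed as VPS38, a subunit of the lipid kinase complex of this pathway, had nearly equal signals of 1317.9 with the antisense construct and 1331.4 with the vector. Of the partners of TOR, the kinase that restrains autophagy when nutrients are ample, RAPTOR1 stood at 0.11 (886.4 and 818.6 in asBoEMF2.1 and vector seedlings). RAPTOR2 was at least 1.68-fold lower, with 93 on the asBoEMF2.1 array and 507.6 on the vector array.

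The remaining bounds in this list were smaller. AT3G53930, listed as ATG1B, was at least 1.22-fold higher, AT3G18770, listed as ATG13B, was at least 1.01-fold higher, and AT2G37840, listed as ATG1C, was at least 1.33-fold lower by the probe set that could be measured. AT1G49180 and both probe sets of AT1G77890 did not reach the floor in either sample.

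**Figure D4:**
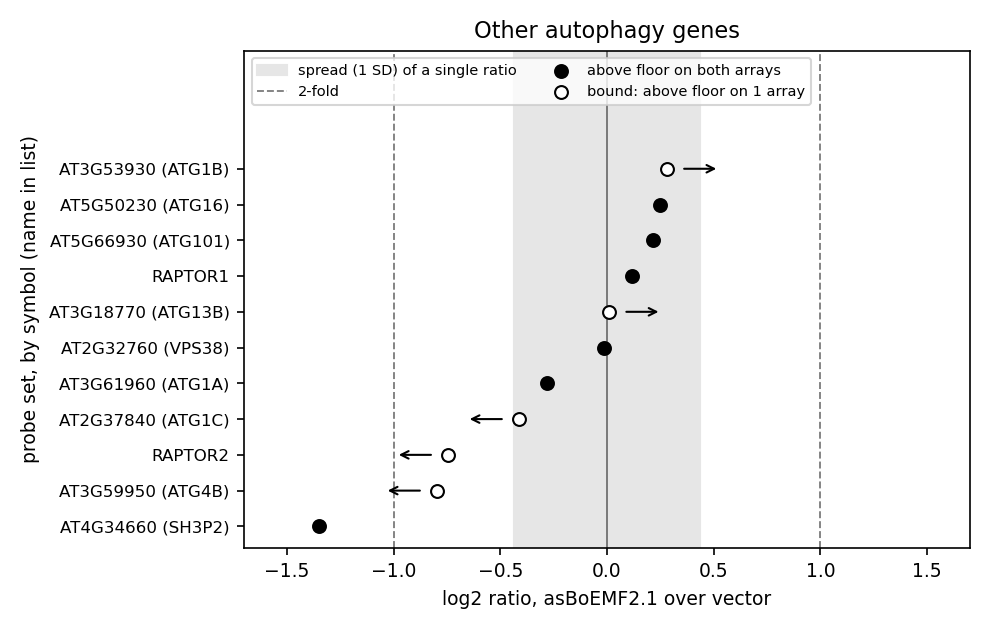
Log2 ratio of asBoEMF2.1 over vector signal for the 11 measurable probe sets of other autophagy genes, by the symbol of the annotation with the name in the list in brackets, with filled circles for values that passed the floor in both samples, open circles with arrows for bounds, a grey band for the spread of a single ratio and dashed lines at 2-fold. AT4G34660 at -1.35 is the single point past 2-fold.

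Other ubiquitin-like systems, which use related E1, E2 and E3 enzymes, were thinly covered: 3 of 29 genes were matched and 2 probe sets were measurable. AT2G18600, listed as RCE2, an E2-like enzyme for the modifier RUB, stood at 0.24 (628.5 on the asBoEMF2.1 array and 530.9 on the vector array). SIZ1, a SUMO ligase, stood at -0.16 (1102.6 on the asBoEMF2.1 array and 1230.1 on the vector array). Both lay nearer to equal signal than ATG3. Of 8 markers of senescence and starvation, states in which autophagy genes are known to be active, SAG29 alone was matched, at 490.3 on the asBoEMF2.1 array and 586.8 on the vector array.

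Among the 7 members measured in both samples, the order by ratio was the same under the 5 scalings of the arrays, with ATG3 highest and APG8A lowest. Centring and scaling to the hybridization controls shift all ratios equally, so only quantile normalization and loess could have changed that order. ATG8B is known by a lower bound alone and has no fixed place in that order. ATG3 ranged from 0.56 to 0.77 and APG8A from -0.62 to -0.36. ATG8C and APG8H changed sign, between -0.20 and 0.02 for ATG8C and between -0.14 and 0.08 for APG8H. ATG8D stayed positive in all 5, at 0.01 with scaling to the hybridization controls, as did ATG8G, at 0.07.

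**Figure D5:**
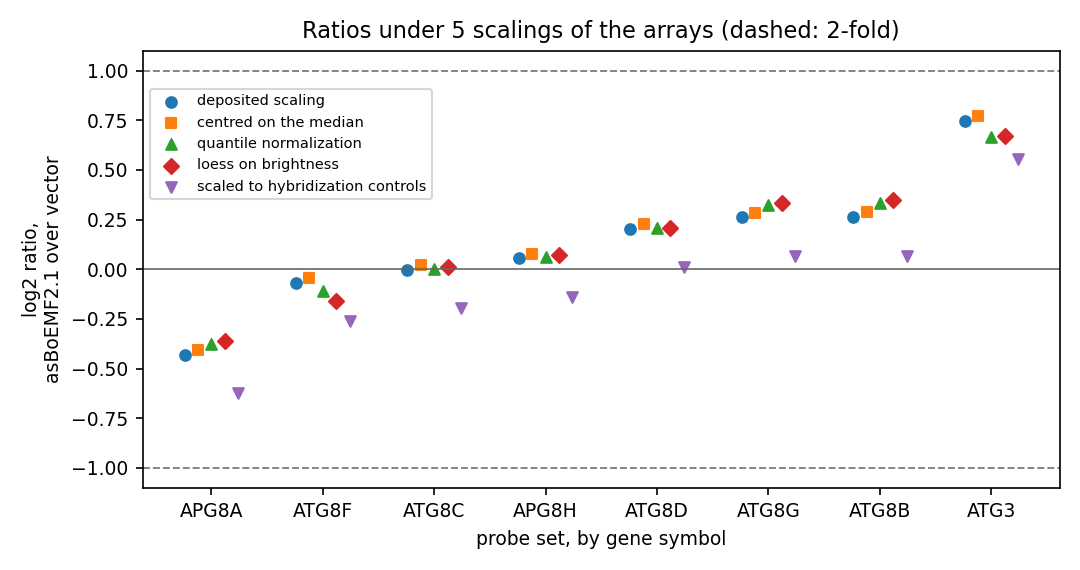
Log2 ratio of asBoEMF2.1 over vector for the 8 measurable members under the deposited scaling and 4 others, with symbols by scaling and dashed lines at 2-fold. The values of ATG8B are bounds, drawn with the same symbols as the others. Among the 7 members measured in both samples ATG3 is the highest and APG8A the lowest in each. Scaling to the hybridization controls lowers all 8 values by the same amount, by construction.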

How the data were processed

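The deposited intensity values are linear, with a single value per probe set and array. The submitters' processing notes name MAS5, and its version is not given in the sources used here. Per the labels' protocols, 10 µg of Trizol-extracted total RNA was made into biotinylated cRNA. The trimmed means, leaving out 2% at each end, were 500.04 on both arrays, so the authors' values share a common scale. Detection calls were not used here. Groups came from the sample titles.

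The floor was the median signal of an array over probe sets other than controls, and lower values were set to it. Ratios are log2 of asBoEMF2.1 over vector. Where a probe set passed the floor in 1 sample only, its ratio is a bound, and where it passed in neither there is none. Each group had 1 sample, so there are no p-values. All members and every matched probe set of the other lists could be named. With 2 arrays a pattern is 1 ratio, so no genes were named for likeness to a member. Members and lists were chosen with earlier results of these data known. Alternatives were 4 other scalings (among them loess with a span of 0.4), other floors, a pseudocount, thresholds of 1.5-fold and 3-fold, and other member sets. The number of arrays limits precision. The procedure was tested on simulated data. The planted differences were larger than any member ratio and lay in bright probe sets, so recovery of smaller or dimmer ones was not tested. The simulated noise was also smaller than the spread of a single ratio in these data. The software was Python 3.11.15 (numpy 2.4.6, pandas 2.3.3, statsmodels 0.14.6, matplotlib 3.10.9).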

Additional observations from a re-analysis of the deposited data

How the results depend on the processing

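No paired analysis was possible because there is a single sample in each group, which also means that none can be omitted. With the floor at the 25th percentile, 1 of 10 members (ATG8B, at 1.26) was 2-fold or more higher, beside 2092 of 18956 probe sets with a ratio. With no floor the same 1 of 10 was, beside 3241 of 22746. At 1.5-fold, 1 of 8 was higher (ATG3), beside 1620 of 13357 (12.1%). Each of these counts of 1 is near the background. The other settings gave 0 members past the threshold, by ratio or bound, in either direction. The median of the members ranged from -0.06 (hybridization controls) to 0.15 (centring). The median of the other autophagy list ranged from -0.21 (hybridization controls) to 0.11 (floor at the 25th percentile), and that of the other ubiquitin-like list from -0.15 to 0.24. Of 61 values of the 8 measurable members under alternatives, 58 moved by less than the spread of a single ratio, and the 3 others belong to ATG8B. Many of the 58 were fixed in advance. Changing the floor leaves a ratio as it was where both signals pass it. Centring and scaling to the hybridization controls shift all 8 members equally, by less than that spread.

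Over all probe sets, the main setting gave 458 higher by 2-fold or more and 557 lower. Scaling to the hybridization controls gave 247 higher and 998 lower. Floors at the 25th percentile gave 2092 higher and 2435 lower, floors at the 75th gave 167 higher and 158 lower, and leaving the floor out gave 3241 higher and 3691 lower. A pseudocount gave 1463 higher and 1879 lower, a threshold of 1.5-fold gave 1620 higher and 1946 lower, and a threshold of 3-fold gave 70 higher and 67 lower. Restricting to single-gene probe sets gave 229 higher and 289 lower. Floors and thresholds change these counts by construction.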

Other observations

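Of the genes in the other autophagy and ubiquitin-like lists, 3 had 2 probe sets, and in all 3 the probe sets went opposite ways by their own signals. For AT2G37840 the signals were 226.2 on the asBoEMF2.1 array and 403.2 on the vector array by the first, and 237 and 52.7 in the same order by the second. For SIZ1 they were 1102.6 and 1230.1 by the first and 282.1 and 126 by the second, and for AT1G77890 they were 113.5 and 68.3 by the first and 49.9 and 82.4 by the second, each with asBoEMF2.1 before vector. Each pair held a probe set, or 2, that passed the floor in neither sample. Among the 9389 probe sets that passed it in neither sample, log2 ratios of the signals themselves had an SD of 1.43, beside 0.54 for the 9382 that passed it in both.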
